A study of Homo sapiens with 6 samples.

Results

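Ferritin and iron handling genes were examined in BT549, a breast cancer line of mesenchymal type, upon knockdown of basonuclin-2 (BNC2), a zinc finger protein. The set was given as 10 gene symbols, FTH1, FTL, TFRC, SLC40A1, SLC11A2, HMOX1, NCOA4, IREB2, ACO1 and STEAP3, and all 10 were found among the 23346 genes of the count table. They were chosen with the outcome of this knockdown known, so their levels and fold changes are described here without p-values. RNA-seq libraries were made from cells transfected with BNC2 siRNA (3 libraries) or with negative control (NC) siRNA (3 libraries), each at 20 nM, with RNA taken 6 days after transfection. Both groups are the same line with the genotype labelled WT, were kept in RPMI with FCS and received the same transfection reagent, named Lipofectamine 2000 in the labels. The study's methods name RNAiMax for siRNAs instead. The BNC2 siRNA was a mixture of 3 siRNAs, so effects of a single siRNA cannot be told apart, and the 6 libraries come from a single cell line.

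Iron enters most cells bound to transferrin, through the transferrin receptor, and is reduced in the endosome and passed to the cytosol. Iron that is not used at once is kept inside ferritin, a hollow shell built from heavy (FTH1) and light (FTL) chains, and is regained when ferritin is carried to lysosomes. Iron regulatory proteins, encoded by ACO1 and IREB2, bind a hairpin called the iron-responsive element (IRE). A hairpin in the 5′ UTR lets them block translation, as in ferritin, while hairpins in the 3′ UTR let them stabilise the mRNA, as in the transferrin receptor. Such control of translation leaves the ferritin mRNA level as it is, and mRNA is all that these libraries measure.

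The hairpins were searched for in the GENCODE transcripts of GRCh37 (the assembly of hg19), to see which members hold the form of the element described next. The pattern was a bulged C, any 5 bases, then CAGTG and any base, with the 5 bases before and the 5 after the loop paired, on the transcript strand only. Capitals mark the bulged C and the loop. Each printed stretch, and each position given for it, also takes in 5 bases on either side of the pattern. The ferritin chains and the exporter SLC40A1 each held 1 match in the 5′ UTR, at chr11:61735047-61735073 on the minus strand for FTH1, chr19:49468593-49468619 on the plus strand for FTL and chr2:190445388-190445414 on the minus strand for SLC40A1.
FTH1 5′ UTR: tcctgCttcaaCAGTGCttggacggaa
FTL 5′ UTR: tcttgCttcaaCAGTGTttggacggaa
SLC40A1 5′ UTR: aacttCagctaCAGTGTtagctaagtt
The printed stretches began at base 34 of the FTH1 transcript, base 28 of FTL and base 99 of SLC40A1. TFRC held 4 matches in its 3′ UTR on chromosome 3, minus strand. They are given here in transcript order from chr3:195777851-195777877 through chr3:195777447-195777473 and chr3:195777382-195777408 to chr3:195777335-195777361. The letters A to D mark this order only and are not established names of TFRC elements, and elements of another form would be missed.
TFRC 3′ UTR site A: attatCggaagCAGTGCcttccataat
TFRC 3′ UTR site B: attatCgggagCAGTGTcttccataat
TFRC 3′ UTR site C: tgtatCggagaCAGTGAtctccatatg
TFRC 3′ UTR site D: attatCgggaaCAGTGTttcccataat
None of the other 6 members held these letters in this pairing, which says only that this form is not in their transcripts. An element of another form is missed by this search, as EPAS1 and CDC42BPA, known to carry one, held no match either. Hence the lack of a match, in SLC11A2 or elsewhere, does not mean that a gene has no such element. Over all genes with such a region, a match was found in 18 of 19080 5′ UTRs (0.0943%), 121 of 19452 3′ UTRs (0.622%) and 114 of 19553 coding sequences (0.583%).

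Before the members, the labels and the libraries were checked. BNC2 (chr9:16409501-16870841) stood at 65.6, 51.5 and 58.6 CPM (a gene's counts relative to the library total, scaled by TMM) with NC siRNA and at 35.5, 36.6 and 41.6 CPM with BNC2 siRNA. The groups did not overlap, and the log2 fold change was -0.63 with a standard error of 0.09. The libraries held 16093978 to 18246254 counts in genes, and 8.68% to 9.71% of their reads mapped to more than 1 place and were not counted. The mesenchymal markers VIM, FN1, CDH2, ZEB1 and FAP were all detected, with FAP at 20.3 CPM in its lowest library, and all 5 were called higher upon knockdown. FAP went from 20.8 ± 0.575 to 58.0 ± 2.86 CPM (SD, n = 3 each) and CDH2 from 152 ± 4.03 to 391 ± 5.08 CPM (SD, n = 3 each), and VIM had the smallest log2 fold change of the 5, 0.18. CDH1, ESRP1, EPCAM and KRT19, markers of epithelial cells, had 0 to 5 counts per library. Of the markers of macrophages or red cells, HBB had 0 counts, and PTPRC and HBA1 at most 7, while CD68 (111 to 150 CPM) and CD163 (2.14 to 8.11 CPM) were present. CD68 was higher and CD163 lower upon knockdown, and the part of these markers, mesenchymal or macrophage, in the results was not tested.

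Upon BNC2 knockdown both ferritin chains and the heme-degrading enzyme HMOX1 were far lower, the ferritin cargo receptor NCOA4 was lower to a small extent, and the uptake genes TFRC, STEAP3 and SLC11A2 were higher. Of the 9 members with more than 1 CPM in at least 3 libraries, 4 were called lower and 3 higher by edgeR's quasi-likelihood test (adjusted p-value of 0.05 or less), and 2, IREB2 and ACO1, were not called. SLC40A1 did not pass this filter and was not fitted. Over all 12186 genes fitted the same rule called 72.9%, 36.2% lower and 36.6% higher, and the libraries of the groups did not overlap in 74.9%, against 7 of the 9 members. The median log2 fold change was 0.02 over the 9 members and 0.00 over all genes. These counts describe a set picked on this contrast and are no result about it. As cells were lysed in bulk, fewer cells that express a gene and less RNA of it per cell cannot be told apart.

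**Figure D1:**
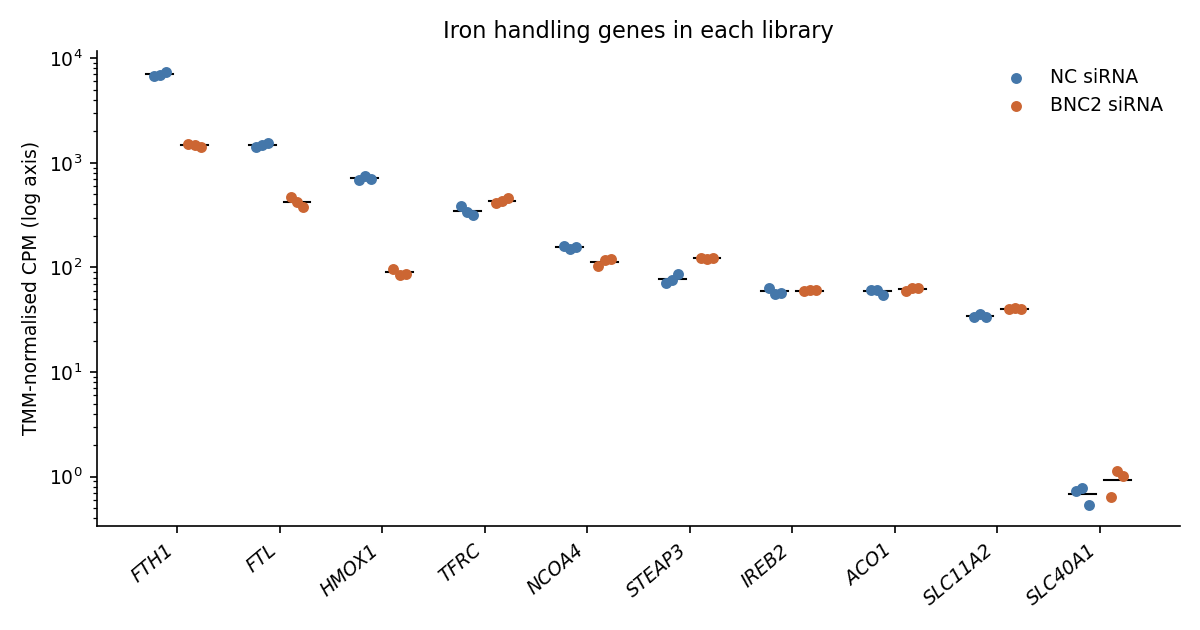
TMM-normalised CPM (log axis) of the 10 members in each library, NC siRNA in blue and BNC2 siRNA in orange, with a line at the mean of each group. FTH1, FTL and HMOX1 sit lower in all 3 BNC2 siRNA libraries, TFRC and STEAP3 sit higher, and the points of IREB2, ACO1 and SLC40A1 overlap.

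FTH1, the heavy chain that oxidises iron as it enters the shell, lies at chr11:61727190-61735106 on the minus strand. With NC siRNA it reached 6764, 6878 and 7325 CPM, and with BNC2 siRNA 1524, 1471 and 1405 CPM. The groups were far apart, and the spread inside each was small beside the gap. The mean went from 6989 ± 297 to 1467 ± 59.6 CPM (SD, n = 3 each), which is 4.76-fold lower, with a log2 fold change of -2.25 and a standard error of 0.06. Of all genes fitted, 2.20% had a lower log2 fold change.

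FTL, the light chain that helps the iron core form, lies at chr19:49468566-49470136 on the plus strand. It stood at 1418, 1476 and 1536 CPM with NC siRNA and at 470, 423 and 380 CPM with BNC2 siRNA. Again all 3 knockdown libraries were below all 3 controls. The mean fell from 1477 ± 59.0 to 424 ± 45.2 CPM (SD, n = 3 each), 3.48-fold lower, with a log2 fold change of -1.80 and a standard error of 0.07. Of all genes fitted, 3.72% had a lower log2 fold change.

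The chains were not lower to the same extent. The number of FTH1 reads per FTL read was 4.77, 4.66 and 4.77 with NC siRNA and 3.24, 3.48 and 3.70 with BNC2 siRNA, so the ranges were apart. The mean ratio was 4.73 ± 0.0628 in controls and 3.47 ± 0.229 upon knockdown (SD, n = 3 each). With the counts set per kilobase of transcript (1203 bases for FTH1 and 871 for FTL), a measure chosen after the data had been seen, it was 3.43 and 2.51. Both chains together took 0.848%, 0.860% and 0.895% of all gene counts in controls and 0.194%, 0.184% and 0.174% upon knockdown. Hence ferritin went from a mean of 0.868% to 0.184% of the counted mRNA reads.

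The ferritin counts hold uniquely mapped reads only. FTH1 and FTL have many processed copies in the genome, and reads that match a copy equally well are missing, so ferritin mRNA is undercounted here. Whether the missing share differs between the groups was not tested. FTH1P3, the copy of FTH1 in the table with reads, had 4 to 15 counts per library, and FTLP10 had 0 counts in all 6.

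The opposite strand gave a readout that the choice of members did not use. Reads on the strand opposite to FTH1 numbered 1444, 1494 and 1378 with NC siRNA and 146, 253 and 165 with BNC2 siRNA, so they were lower in the same libraries. They made up 1.19%, 1.20% and 1.12% of reads on both strands in controls and 0.554%, 0.961% and 0.742% upon knockdown. BEST1, a chloride channel gene on the plus strand, overlaps FTH1 by 5798 bases, and reads of BEST1 on FTH1 exons would be counted here. At FTL the opposite strand had 158, 154 and 172 reads in controls and 35, 43 and 26 upon knockdown. At HMOX1 it had 215, 190 and 175 reads in controls and 12, 24 and 9 upon knockdown. For all 3 genes the groups did not overlap. The groups were also apart, at far fewer reads, at TFRC (15, 8 and 9 in controls and 7, 6 and 4 upon knockdown) and at ACO1 (29, 21 and 8 in controls and 6, 6 and 2 upon knockdown). Lower opposite-strand counts were therefore not particular to the 3 genes, as TFRC was higher on its sense strand and ACO1 was not called. IREB2, SLC11A2 and SLC40A1 had 0 to 2 such reads in a library. What share of these reads is carried over from the sense strand was not tested.

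**Figure D2:**
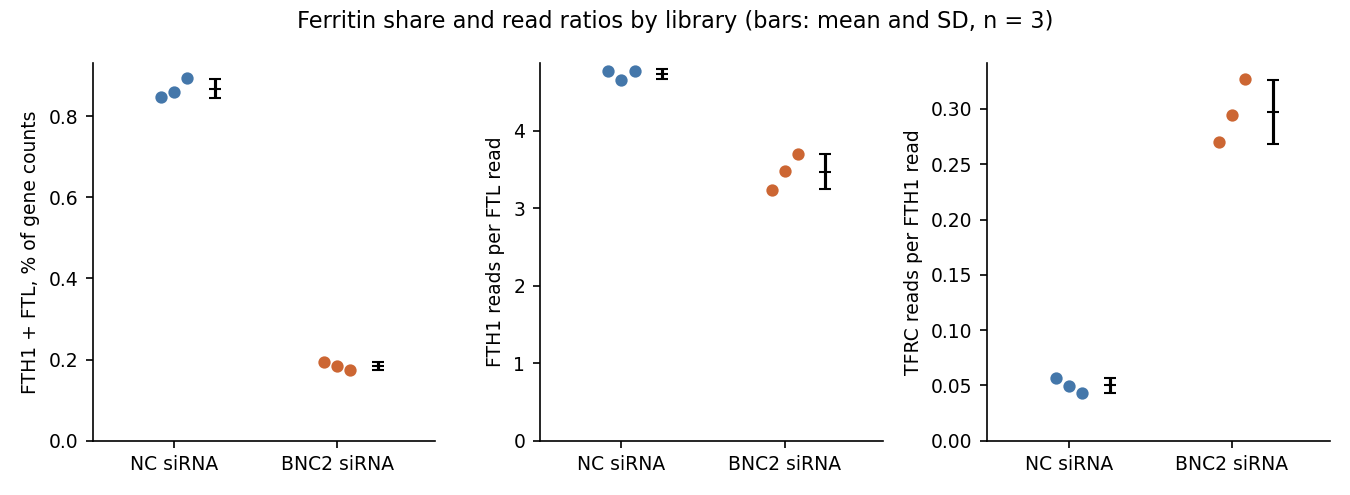
FTH1 and FTL as a percent of gene counts (left), FTH1 reads per FTL read (middle) and TFRC reads per FTH1 read (right) in each library, with the mean and SD of 3 libraries beside the points. The first and second are lower and the last is higher in all 3 BNC2 siRNA libraries.

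NCOA4, the receptor that carries ferritin to the lysosome for iron release, lies at chr10:51565199-51590734 on the plus strand. It was measured at 160.4, 151 and 155 CPM with NC siRNA and 103.6, 117.5 and 120.1 CPM with BNC2 siRNA. The groups did not overlap, but the gap was narrow beside that of the ferritin chains. The mean was 155.5 ± 4.72 CPM in controls and 113.7 ± 8.90 CPM upon knockdown (SD, n = 3 each), 73.1% of control, with a log2 fold change of -0.45 and a standard error of 0.06. Its opposite strand had 133, 123 and 121 reads in controls and 136, 119 and 108 upon knockdown, where an annotated lncRNA (ENSG00000289092) overlaps the gene by 1389 bases. Those ranges overlapped, unlike those on the sense strand.

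HMOX1, heme oxygenase 1, opens the heme ring and frees its iron, and is a classic gene of the response to oxidative stress. It lies at chr22:35776354-35790207 on the plus strand. It was found at 680, 750.2 and 700.2 CPM with NC siRNA and 96.6, 85.4 and 87.0 CPM with BNC2 siRNA. No member had a larger fold change. The mean of 710.1 ± 36.2 CPM became 89.7 ± 6.06 CPM (SD, n = 3 each), 7.92-fold lower, with a log2 fold change of -2.99 and a standard error of 0.07, and 1.01% of all genes fitted had a lower log2 fold change.

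TFRC, the transferrin receptor, lies at chr3:195739382-195809024 on the minus strand. It stood at 383, 340.3 and 319 CPM with NC siRNA and at 411, 434 and 460.1 CPM with BNC2 siRNA. The highest control library came close to the lowest knockdown library without reaching it. The mean rose from 347.6 ± 32.8 to 434.9 ± 24.5 CPM (SD, n = 3 each), 1.25-fold higher, with a log2 fold change of 0.32 and a standard error of 0.07. Set against ferritin, there were 0.0567, 0.0495 and 0.0435 TFRC reads per FTH1 read in controls and 0.270, 0.295 and 0.327 upon knockdown. Most of that difference lies in FTH1, whose log2 fold change was the larger of the pair.

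STEAP3, the reductase that turns ferric into ferrous iron in the endosome, lies at chr2:119981407-120023228 on the plus strand. It stood at 71.3, 76.3 and 86.3 CPM with NC siRNA and 124.4, 120.1 and 122.1 CPM with BNC2 siRNA. All 3 knockdown libraries were above the controls and close together. The mean rose from 78.0 ± 7.67 to 122.2 ± 2.15 CPM (SD, n = 3 each), 1.57-fold higher, with a log2 fold change of 0.65 and a standard error of 0.07. STEAP3-AS1, an antisense gene, overlaps 21231 bases of the STEAP3 locus, and the opposite strand had 10, 24 and 16 reads in controls and 10, 26 and 19 upon knockdown.

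SLC11A2 encodes DMT1, the transporter that moves ferrous iron out of the endosome, and lies at chr12:51373184-51422349 on the minus strand. It was at 33.9, 36.0 and 33.2 CPM with NC siRNA and 39.8, 40.6 and 40.1 CPM with BNC2 siRNA. The means were 34.4 ± 1.42 and 40.2 ± 0.393 CPM (SD, n = 3 each), 1.17-fold higher upon knockdown, with a log2 fold change of 0.22 and a standard error of 0.07. The groups did not overlap, but this gene was no longer called when libraries were scaled by total counts alone (log2 fold change 0.15) or without NC siRNA replicate 3 (0.18).

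SLC40A1 encodes ferroportin, the known exporter of iron from cells, and lies at chr2:190425316-190448484 on the minus strand. Only 13, 14 and 9 reads were counted in controls and 11, 20 and 16 upon knockdown, which corresponds to 0.732, 0.784 and 0.542 CPM and to 0.640, 1.13 and 1.02 CPM. The groups overlapped, and at this depth a difference was not detectable. Fitted without the filter on low counts, its log2 fold change was 0.46 and it was not called.

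The genes of the iron regulatory proteins differed little. IREB2, which encodes the protein removed when iron is ample, lies at chr15:78729773-78793795, and had 63.9, 56.3 and 57.3 CPM in controls and 59.1, 60.3 and 61.0 CPM upon knockdown. Its log2 fold change was 0.02 with a standard error of 0.07, and its sign turned when libraries were scaled by total counts alone. ACO1, which is an aconitase when it holds an iron-sulfur cluster and binds RNA when it does not, lies at chr9:32384601-32454767. It had 61.1, 60.7 and 55.0 CPM in controls and 59.9, 63.0 and 63.1 CPM upon knockdown, with a log2 fold change of 0.07 and a standard error of 0.07. For both genes the groups overlapped. The number of IREB2 reads per ACO1 read was 1.05, 0.929 and 1.04 in controls and 0.987, 0.958 and 0.967 upon knockdown, also overlapping.

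**Figure D3:**
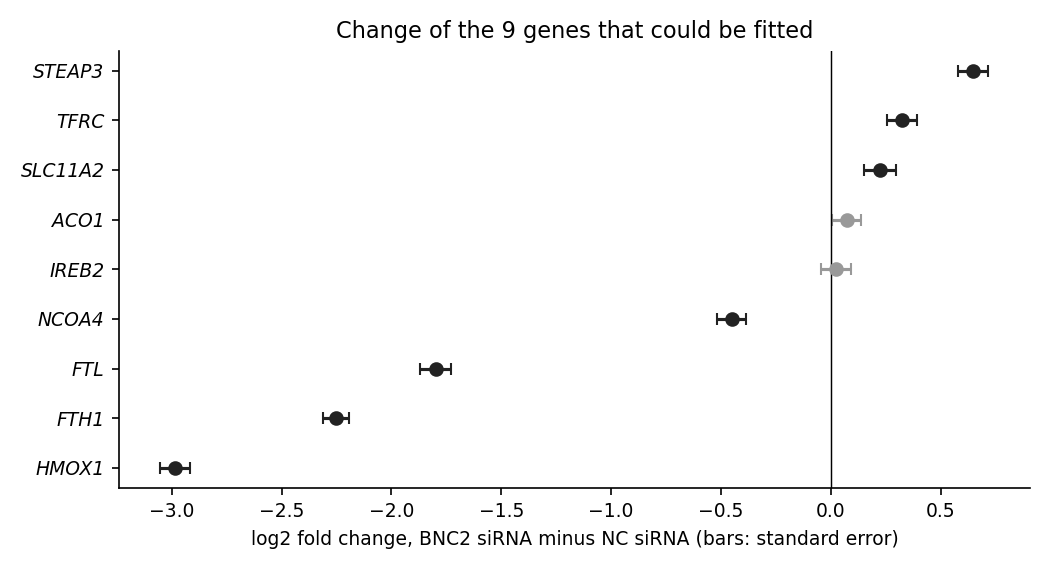
Log2 fold change (BNC2 siRNA minus NC siRNA) of the 9 members that could be fitted, with bars for the standard error and grey points for genes not called. The order runs from HMOX1 at -2.99, FTH1 at -2.25 and FTL at -1.80 to STEAP3 at 0.65.

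Levels can be compared between genes only per length, and on the scale of CPM per kilobase of transcript the order of members changed at a few places. In controls FTH1 stood at 5810 ± 247, FTL at 1695 ± 67.8 and HMOX1 at 457 ± 23.3 CPM per kilobase (SD, n = 3 each). They were followed by TFRC at 69.4, NCOA4 at 44.9, STEAP3 at 18.3, IREB2 at 9.36, SLC11A2 at 8.32, ACO1 at 7.91 and SLC40A1 at 0.206 CPM per kilobase. Among neighbours in that order, SLC11A2 and ACO1 overlapped between libraries and the other pairs did not. Upon knockdown FTH1 and FTL still led, at 1220 ± 49.5 and 487 ± 51.9 CPM per kilobase (SD, n = 3 each). TFRC at 86.8 then stood above HMOX1 at 57.7 CPM per kilobase, which was the reverse of the controls. NCOA4 at 32.9, STEAP3 at 28.7, SLC11A2 at 9.72, IREB2 at 9.51, ACO1 at 8.33 and SLC40A1 at 0.279 CPM per kilobase made up the rest, with SLC11A2 and IREB2 overlapping.

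Genes with a pattern like that of FTH1 were looked for by the Euclidean distance between log2 CPM values centred per gene over the 6 libraries. The nearest outside the set were VGF (distance 0.117, from 225 to 45.6 CPM), TFPI2 (distance 0.127, from 33.2 to 6.65 CPM) and RAB3IL1 (distance 0.139, from 34.5 to 7.07 CPM).

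Other genes of iron and heme metabolism were taken from 8 lists written by function. Of 100 genes, 99 were in the table and 77 were fitted, with 25 up-regulated, 36 down-regulated and 16 not called, so 79.2% were called beside 72.9% of all genes. Their median log2 fold change was -0.12. For these genes the adjusted p-values come from edgeR's quasi-likelihood test over all 12186 genes, and ± after a log2 fold change gives its standard error.

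Iron uptake and reduction genes moved both ways. All 8 genes fitted of 15 were called, 4 higher and 4 lower, with a median log2 fold change of -0.05 (-0.11 to -0.01 with single libraries left out, lowest without NC siRNA replicate 3). With no filter, so that genes of the list with few reads such as TF and LTF were fitted too, it was -0.43, and with total counts alone -0.13. LRP1, a receptor that takes up heme bound to hemopexin, rose from 39.0 ± 4.75 to 92.8 ± 2.49 CPM (SD, n = 3 each; log2 fold change 1.25 ± 0.08, adjusted p = 4.4e-10). HFE, which binds the transferrin receptor, rose as well (log2 fold change 0.95, adjusted p = 5.4e-05), as did the metal importer SLC39A8 (0.47, adjusted p = 0.0022), whose log2 fold change was 0.30 without NC siRNA replicate 2. CD163, the receptor for hemoglobin bound to haptoglobin and a marker of macrophages, fell from 7.45 ± 0.667 to 2.65 ± 0.475 CPM (SD, n = 3 each; log2 fold change -1.49, adjusted p = 6.0e-07). PTPRC, a marker of blood cells, was at 0.112 to 0.361 CPM in controls and 0.174 to 0.395 CPM upon knockdown. The lysosomal channel MCOLN1 fell (log2 fold change -0.65, adjusted p = 6.3e-05), and so did the ferric reductase CYBRD1 (-0.46, adjusted p = 1.5e-05).

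The export and hepcidin list was mostly silent, since 1 of its 9 genes in the table was fitted. That gene was NEO1, a co-receptor of the hepcidin pathway, which rose from 4.64 ± 0.354 to 10.1 ± 0.716 CPM (SD, n = 3 each; log2 fold change 1.13, adjusted p = 9.2e-07). The ferroxidase CP had 4 to 18 counts in controls and 1 to 4 upon knockdown, HAMP (hepcidin) 0 to 2 in any library, and the ferroxidase HEPH 0 in all 6.

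Among ferritin relatives, iron chaperones and genes for the turnover of iron regulatory proteins, 9 of 13 were fitted, with 3 up-regulated, 3 down-regulated and 3 not called (median log2 fold change -0.01, -0.02 to 0.04 with single libraries left out and -0.08 with total counts alone). PCBP1, which delivers iron to ferritin, was not called (240 ± 5.23 and 259 ± 12.5 CPM, SD, n = 3 each). Its relative PCBP2 was higher, at 222, 230 and 228 CPM in controls and 380, 380 and 372 CPM upon knockdown (log2 fold change 0.73 ± 0.05, adjusted p = 2.0e-09), and PCBP3 rose by 0.65 (adjusted p = 3.1e-05). FBXL5, the iron-sensing subunit of the ligase that degrades the IREB2 protein, fell from 56.2 ± 4.68 to 45.8 ± 2.15 CPM (SD, n = 3 each; adjusted p = 0.0021). SKP1, another subunit of that ligase, fell by 0.70 on the log2 scale (adjusted p = 6.8e-09), the scaffold CUL1 was not called (log2 fold change -0.02), and HERC2, a ligase known to act on FBXL5, rose by 0.43 (adjusted p = 4.7e-05). The chaperone GLRX3 fell by 0.20 on the log2 scale (adjusted p = 0.011). The ferritin relatives FTMT and FTHL17 had 0 counts in all 6 libraries.

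In the heme list, 18 of 21 genes were fitted, with 4 up-regulated, 9 down-regulated and 5 not called, and a median log2 fold change of -0.22. Without NC siRNA replicate 2 this median was -0.12, and with total counts alone 2 genes were called higher in place of 4. FLVCR2, a heme or choline transporter, passed the filter only through the NC siRNA libraries, where it had 20 to 29 counts beside 2 to 13 upon knockdown. SLC48A1, which moves heme out of the endosome, had the largest fall of the list, from 21.0, 22.2 and 22.5 CPM to 4.89, 5.64 and 5.86 CPM (log2 fold change -2.00 ± 0.11, adjusted p = 8.9e-11). BLVRB, a biliverdin reductase that acts downstream of heme oxygenase, was at 29.6, 36.3 and 33.8 CPM in controls and 11.9, 10.4 and 10.4 CPM upon knockdown (log2 fold change -1.60, adjusted p = 4.7e-10). HMOX2, the constitutive heme oxygenase, also fell (62.2 ± 5.68 to 40.7 ± 4.82 CPM, SD, n = 3 each; adjusted p = 1.0e-05), as did BLVRA, the other reductase of biliverdin (log2 fold change -0.55, adjusted p = 5.5e-05).

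Heme synthesis was divided. ALAS1, the rate-limiting first enzyme, fell from 201, 217 and 221 CPM to 102, 95.2 and 91.6 CPM (adjusted p = 6.8e-11), and FECH, which inserts iron as the last step, fell from 19.6 ± 2.26 to 13.7 ± 1.53 CPM (SD, n = 3 each; adjusted p = 0.00052). PPOX (log2 fold change 0.47, adjusted p = 0.012) and CPOX (0.23, adjusted p = 0.012) were higher, but PPOX was not called without NC siRNA replicate 3 (0.40) and without BNC2 siRNA replicate 1 (0.41), nor CPOX without NC siRNA replicate 2 (0.18).

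All 20 genes of mitochondrial iron import and iron-sulfur cluster assembly were fitted, with 6 up-regulated, 9 down-regulated and 5 not called (median log2 fold change -0.20). ISCU, the scaffold on which clusters are built, fell from 49.2, 57.6 and 52.7 CPM to 27.9, 26.5 and 27.8 CPM (log2 fold change -0.96 ± 0.08, adjusted p = 1.0e-08). Both mitoferrins, the iron importers of the inner membrane, were lower, SLC25A28 from 42.2 ± 5.28 to 23.8 ± 0.778 CPM (adjusted p = 4.5e-07) and SLC25A37 from 105 ± 7.61 to 76.5 ± 3.87 CPM (SD, n = 3 each; adjusted p = 1.2e-05). The ferredoxin FDX1 fell as well (log2 fold change -0.70, adjusted p = 1.1e-05). NUBPL, an assembly factor of respiratory complex I, rose from 6.03, 6.72 and 5.00 CPM to 17.1, 15.5 and 16.5 CPM (log2 fold change 1.46, adjusted p = 1.7e-08), and ISCA1 (0.51, adjusted p = 0.00012) and BOLA3 (0.47, adjusted p = 0.0049) rose to a smaller extent.

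The cytosolic assembly list had 9 genes, all fitted, with 2 up-regulated, 5 down-regulated and 2 not called (median log2 fold change -0.26). MMS19, an adaptor that hands clusters to DNA repair enzymes, rose from 31.6, 33.0 and 28.7 CPM to 58.3, 55.3 and 48.9 CPM (log2 fold change 0.80, adjusted p = 1.9e-07), and CIAO1 rose by 0.23 (adjusted p = 0.0066). CIAPIN1 fell (log2 fold change -0.40, adjusted p = 0.00020), and smaller falls were called for NUBP2 (adjusted p = 0.022) and for CIAO3, which the table holds as NARFL (adjusted p = 0.035). The number of genes called lower lay between 2 and 5 when single libraries were left out, with 2 without BNC2 siRNA replicate 2, and 3 without NC siRNA replicate 2, without NC siRNA replicate 3 or without BNC2 siRNA replicate 3. The number called higher was 1 without NC siRNA replicate 3, and the median was -0.17 without BNC2 siRNA replicate 3.

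**Figure D4:**
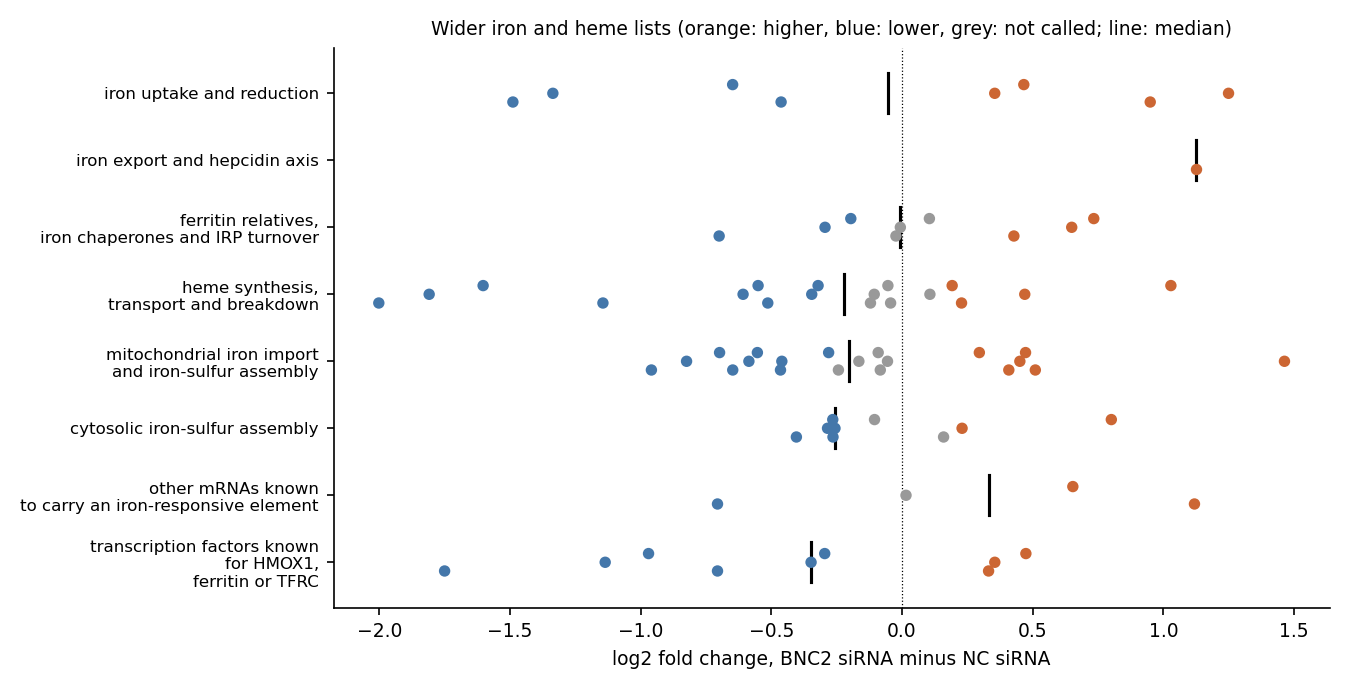
Log2 fold change (BNC2 siRNA minus NC siRNA) of each fitted gene in the 8 lists, orange for genes called higher, blue for genes called lower and grey for genes not called, with a line at the median. Most lists hold genes on both sides of 0, and EPAS1 is drawn in both lists it belongs to.

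mRNAs other than the members that are known to carry an IRE did not move in a common direction. Of 5, ALAS2, the red cell form of the first heme enzyme, had 0 counts, and of the 4 fitted, 2 were up-regulated, 1 was down-regulated and 1 was not called. The same search found the element in the 3′ UTR of CDC14A, a phosphatase (chr1:100984140-100984166, plus strand), shown here because it can be set beside those of TFRC.
CDC14A 3′ UTR: atttaCatgtaCAGTGTtacattatat
CDC14A rose from 12.3 ± 0.303 to 19.4 ± 1.64 CPM (SD, n = 3 each; log2 fold change 0.65, adjusted p = 1.6e-05), and TFRC, with the element in the 3′ UTR too, was also higher. TF held a match in its 3′ UTR as well, and its few counts went the other way. They were 10, 20 and 11 in controls and 0, 1 and 0 upon knockdown, too few to be fitted. Whether the element has a part in these levels was not tested. EPAS1 (HIF-2α) fell from 208, 186 and 186 CPM to 121, 116 and 118 CPM (log2 fold change -0.71, adjusted p = 2.1e-08). CDC42BPA was not called, at 229 ± 6.50 and 232 ± 7.18 CPM (SD, n = 3 each). EPAS1 and CDC42BPA held no match to the pattern as searched.

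The last list held 9 transcription factors and partners known to act on HMOX1, ferritin or TFRC, all of which were called, 3 higher and 6 lower, with a median log2 fold change of -0.35. NFE2L2 (NRF2), an activator of HMOX1 and of both ferritin genes, was at 119, 118 and 118 CPM in controls and 33.7, 36.2 and 35.7 CPM upon knockdown (log2 fold change -1.75 ± 0.06, adjusted p = 5.2e-13). Its small MAF partners were divided, as MAFG (log2 fold change -1.14, adjusted p = 3.2e-10) and MAFF (-0.97, adjusted p = 2.3e-08) fell and MAFK rose (0.33, adjusted p = 0.0025). BACH1, the repressor that binds the same sites, rose from 23.3 ± 1.61 to 29.9 ± 2.22 CPM (SD, n = 3 each; adjusted p = 0.0016), while KEAP1, which marks NRF2 for degradation, fell (log2 fold change -0.35, adjusted p = 6.5e-05). HIF1A fell by 0.30 on the log2 scale (adjusted p = 6.8e-05). MYC, known to act on FTH1, TFRC and IREB2, rose by 0.47 on the log2 scale (adjusted p = 5.0e-06). Whether the levels of these factors have a part in those of the members was not tested.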

How the data were processed

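Poly(A) RNA of 6 BT549 libraries, 3 per siRNA, was sequenced as single-end reads. The authors aligned these with STAR 2.6.1d to hg19 with the iGenomes UCSC annotation and deposited counts per gene without normalisation. The deposited counts equal STAR's reverse-strand column and hold uniquely mapped reads only, while the forward-strand column gave the opposite-strand reads. Reads assigned to no gene (37.7% to 41.1% of a library) were left out. The tool and build names are those of the submitters' processing notes. The methods describe the libraries of a group as biological replicates.

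The 12186 genes above 1 CPM in 3 or more libraries were scaled with TMM and compared with edgeR 4.0.16 (quasi-likelihood test, R 4.3.3) without a replicate block, and called where the p-value, adjusted over all genes after Benjamini-Hochberg, was 0.05 or less. The study's own test was edgeR's likelihood ratio test, used here as an alternative. A standard error is the size of the log2 fold change divided by the square root of the F statistic. Depth was 16093978 to 18246254 counts per library. On simulated counts the test recovered 195 of 198 genes changed 2-fold among 12031 genes, with 8 false calls. Those counts had the same dispersion for every gene and a far smaller share of changed genes than the 72.9% called in the data. They therefore do not give the error rate of the calls made here. Positions and transcripts come from GENCODE 44 mapped to GRCh37.

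The 10 members and the 8 lists were chosen with earlier results of these data known, so no p-value is given for members and none over a list. Some single genes of the lists are not reported here. Named are all members, up to 3 called genes per direction and list (mean in the higher group 5 CPM or more), the genes of the lists of IRE mRNAs and transcription factors, ferritin copies, the 3 genes nearest to FTH1, BNC2 and the markers. HMOX2, BLVRA, FECH, SLC25A37, PCBP1, CUL1, FLVCR2, CP, HAMP, HEPH, FTMT and FTHL17 were named after their values were seen. Alternatives were the likelihood ratio test, DESeq2 1.42.0, its size factors, total counts alone, no filter, filterByExpr, a replicate block, both strands and leaving out each library.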

Additional observations from a re-analysis of the deposited data

How the results depend on the processing

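Under 14 alternatives to the settings used, 4 members were called lower each time and 3 higher, except that SLC11A2 was lost with total counts alone and without NC siRNA replicate 3. FTH1 stayed between -2.33 and -2.22, FTL between -1.87 and -1.73 and HMOX1 between -3.06 and -2.95 (log2 fold change). The genes called over the whole table numbered 8084 to 9662 in all, and 8084 to 8596 with single libraries left out, and of the lists 22 to 26 genes were called higher and 32 to 39 lower. Replicate numbers did not pair the libraries (correlations of same-numbered deviations -0.29, -0.10 and -0.17). With the replicate block 8400 genes were called, of the members again 3 higher and 4 lower, and of the lists 25 higher and 34 lower. In the cytosolic assembly list the block left 3 called lower. Genes not called changed sign. With total counts alone IREB2 was at -0.0537, ACO1 at -0.0034 and CDC42BPA at -0.0606, and with single libraries left out IREB2 ranged from -0.0308 to 0.0617 and CDC42BPA from -0.0263 to 0.0459. For the export and hepcidin list, testing all genes with reads gave 3 called lower and a median log2 fold change of -2.63, as genes with few reads then enter. The cause of the other shifts was not tested. CIAO3 (NARFL) lost its call with DESeq2, without the filter, with the block and in 5 of 6 fits without a library, and CIAO1 lost its call with total counts alone and without NC siRNA replicate 3. Depth limits SLC40A1 and the genes under 1 CPM.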
